A study of Mus musculus with 10 samples.

Results

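The genes of glycolysis and of the transcriptional response to hypoxia-inducible factor (HIF) were examined in bulk RNA-seq of primary cultures of mouse tongue epithelium. The genes were taken by symbol from a list of 41, of which 40 had a row among the 18586 rows of the expression table. Eno2, the neuronal enolase, was not analysed here. All 40 were among the 11630 genes tested, which reached 1 TPM in at least 4 libraries. TPM is a transcript abundance scaled to transcript length and library total, so that levels can be set side by side between genes. Between libraries it compares shares of each library's total.

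EY cells carried Krt14-CreERT with LSL-rtTA, the reporter tetON_H2B-GFP, and both tetON_E6-E7 and tetON_YAP1S127A, that is, inducible HPV oncogenes together with an inducible, constitutively active YAP1. N cells carried the driver, the transactivator and the green reporter that EY cells also had, without either oncogene. Cre was active in keratin-14-expressing cells after tamoxifen, doxycycline then switched on the inducible genes in the tongues of littermate mice, and doxycycline stayed in the culture medium. Cells were isolated 15 days after induction, enriched by sorting for the green reporter and grown in culture before RNA was taken. The series' design text puts the sort before culture, whereas the paper's methods describe, for EY, a sort of cells already in culture. The 6 EY libraries came in pairs from the 3 lines EY3960, EY4028 and EY4174, and the 4 N libraries all came from the line N4172. Genotype and line therefore cannot be told apart, and p-values measure the spread between libraries, of which those of one line may be technical repeats. The labels name no low-oxygen treatment.

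The cultures had the markers of basal keratinocytes, with 7 of 7 listed markers measured and their sum between 4256 and 7200 TPM in EY and between 5293 and 6027 TPM in N. Krt14 and Krt5 made up most of this sum. Krt15 was lower in EY without overlap, at 8.70 to 35.3 TPM beside 64.3 to 97.9 TPM in N. Trp63 was likewise lower, at 46.0 to 60.5 TPM beside 70.8 to 99.9 TPM. Krt5, Krt14, Itga6, Itgb4 and Col17a1 overlapped between the groups. Markers of fibroblasts, endothelium, skeletal muscle and melanocytes summed to at most 3.44 TPM per list in any library. Of these lists 2 of 7, 4 of 5, 2 of 6 and 4 of 5 markers had a row, in that order. The immune markers Ptprc and Csf1r were below 1 TPM in every library. The third immune marker with a row, the lysosomal protein gene Cd68, was at 29.3 to 71.8 TPM in EY and 42.1 to 68.7 TPM in N, and among EY lines it was highest in EY3960. The neural marker Tubb3 was at 48.4 to 77.7 TPM in EY and 39.6 to 59.3 TPM in N. The part of Cd68- or Tubb3-expressing cells in the results was not tested. The row of mouse Yap1 was at 34.7 to 57.1 TPM in EY and 17.2 to 20.9 TPM in N, and whether it holds reads of the YAP1 transgene was not tested. The depth behind the values is unknown, and between 10852 and 11522 genes per library had at least 1 TPM.

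Glycolysis splits glucose into pyruvate in the cytosol, and lactate dehydrogenase then turns pyruvate into lactate, which leaves the cell through monocarboxylate transporters. When oxygen is low, the prolyl hydroxylases encoded by Egln genes no longer mark the HIF alpha subunits for destruction by the VHL ubiquitin ligase, and HIF then binds hypoxia response elements beside many glycolytic genes, as well as genes for blood vessel growth, collagen modification and removal of mitochondria. HIF also responds to growth factor signalling. HIF alpha is controlled mainly at the level of the protein, which was not measured here.

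Slc16a3, which encodes the lactate exporter MCT4, rose in EY, whereas Pfkfb3, whose product makes the activator of phosphofructokinase, and Bnip3, a mitochondrial receptor for autophagy, fell. A gene was called where limma's Benjamini-Hochberg adjusted p was under 0.01 and log2(TPM + 1) differed by more than 1. By that rule 1 of the 40 genes (2.5%) was called higher in EY and 2 (5%) lower, beside 1.85% and 1.7% of all genes tested. By the adjusted p alone 4 genes (10%) were higher and 6 (15%) lower, beside 6.84% and 5% of all genes. The libraries did not overlap for 4 genes (10%) with EY above N and for 10 (25%) with EY below N, beside 11.3% and 9.1% of all genes. These counts include Pfkm, which reached 1 TPM in N libraries only and so could pass the filter only by being higher there. Eno1b, among the 10 genes with EY below N, reached 1 TPM in 4 N and 2 EY libraries and so passed only with N. It is a near-identical copy of Eno1, which is counted with EY above N.

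The log2 fold change was below 0 for 27 of the 40 genes and above 0 for 13, with a median of -0.18, whereas 46.0% of all genes tested were below 0 and their median was 0.03. Enzymes of the glycolytic chain had a median of -0.14 over 17 genes, and the 4 enzymes of collagen and disulfide formation had a median of -0.41, with all 4 below 0. The 5 remaining HIF targets had a median of 0.14. Expression of the pathway in its order from glucose uptake to lactate export is shown first.

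**Figure D1:**
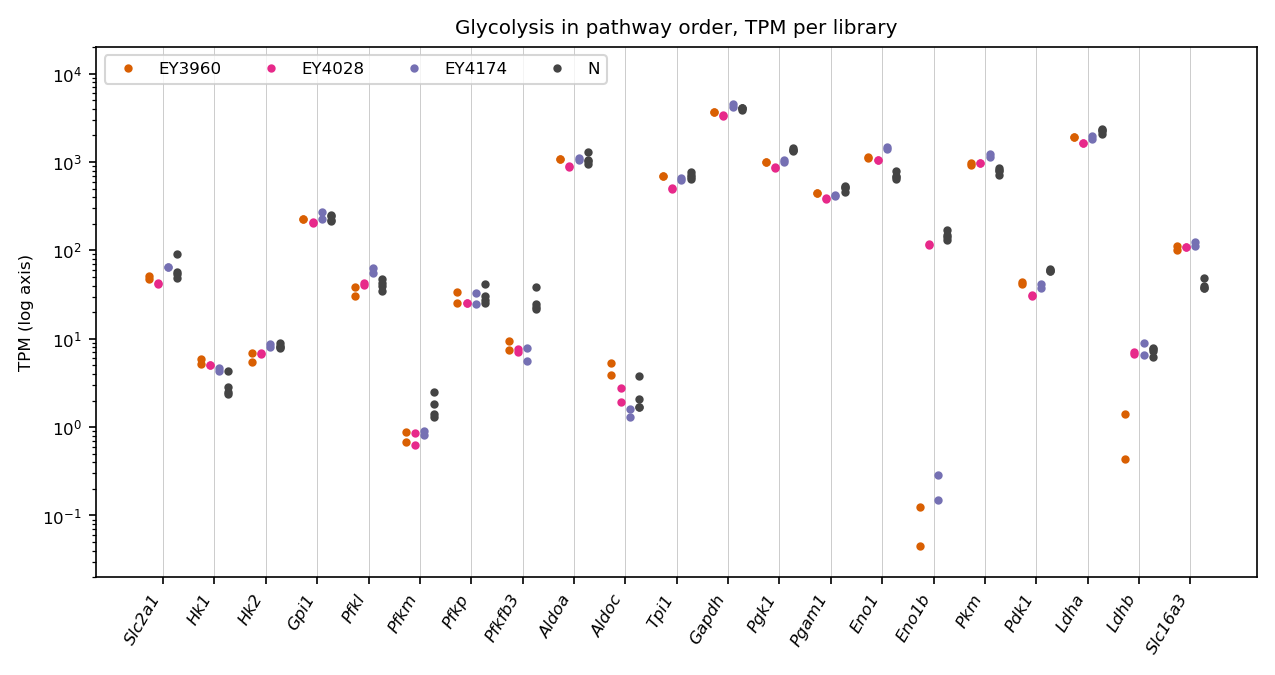
TPM (log axis) in each of the 10 libraries for 21 genes ordered from glucose uptake to lactate export, with 1 point per library and colours for the 3 EY lines and N. Levels ran from below 1 TPM (Pfkm in EY, Eno1b in EY3960 and EY4174) to 3348 to 4564 TPM for Gapdh in EY, and the widest gaps between lines were those of Eno1b and Ldhb.

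Promoter windows are shown for the called genes because these genes moved in opposite directions while sharing the core of the hypoxia response element. The windows, from RefSeq on GRCm38.p6, run from 250 bases before to 50 bases after a transcript start, on the strand of the gene. Capitals mark ACGTG or GCGTG read on either strand, with overlapping matches counted separately. Slc16a3 (plus strand, chr11:120948817-120949116) holds 2 matches, Bnip3 (minus strand, chr7:138909457-138909756) holds 5, and the windows of the upstream and the downstream start of Pfkfb3 (minus strand, chr2:11553880-11554179 and chr2:11502041-11502340) hold 1 and 4.
Slc16a3: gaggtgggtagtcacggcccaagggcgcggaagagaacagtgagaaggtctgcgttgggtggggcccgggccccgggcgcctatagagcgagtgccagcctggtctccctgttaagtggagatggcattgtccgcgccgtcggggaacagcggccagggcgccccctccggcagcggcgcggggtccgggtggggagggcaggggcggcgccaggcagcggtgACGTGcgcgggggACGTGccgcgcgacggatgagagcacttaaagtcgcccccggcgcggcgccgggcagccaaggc
Bnip3: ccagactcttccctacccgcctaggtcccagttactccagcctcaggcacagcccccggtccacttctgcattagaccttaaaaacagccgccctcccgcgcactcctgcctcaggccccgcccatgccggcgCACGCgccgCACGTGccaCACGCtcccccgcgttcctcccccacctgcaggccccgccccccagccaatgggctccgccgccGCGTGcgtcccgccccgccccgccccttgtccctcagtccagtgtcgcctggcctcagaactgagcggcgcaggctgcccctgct
Pfkfb3 upstream start: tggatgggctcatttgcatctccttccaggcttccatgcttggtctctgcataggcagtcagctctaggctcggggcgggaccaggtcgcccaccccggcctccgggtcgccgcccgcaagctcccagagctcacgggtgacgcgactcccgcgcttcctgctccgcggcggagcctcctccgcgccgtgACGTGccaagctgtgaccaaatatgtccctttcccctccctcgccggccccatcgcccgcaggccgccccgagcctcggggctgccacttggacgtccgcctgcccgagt
Pfkfb3 downstream start: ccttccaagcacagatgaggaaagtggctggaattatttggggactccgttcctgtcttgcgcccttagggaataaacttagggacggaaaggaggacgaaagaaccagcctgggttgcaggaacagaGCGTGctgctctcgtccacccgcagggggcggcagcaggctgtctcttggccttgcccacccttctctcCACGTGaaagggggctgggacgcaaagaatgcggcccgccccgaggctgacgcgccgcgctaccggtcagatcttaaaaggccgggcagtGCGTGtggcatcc

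A window was found for 36 of the 40 genes, with Ero1l matched under its current symbol Ero1a, and none for Eno1b, Plod2, Bnip3l and Ndrg1. At least 1 match was present in 33 of these 36 genes (91.7%), beside 69.9% of the 8590 tested genes with a window, 46.7% of all 27025 genes with a window and 43.8% of the 32851 windows. The share was 91.7% both for the 24 genes with a fold change below 0 and for the 12 above 0. Gpi1, Tpi1 and Gbe1 had no match. A match describes the letters only and is not a measured binding site.

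The lactate exporter gene showed the clearest rise among the genes examined, and export itself was not measured. Slc16a3 was at 101 and 113 TPM in EY3960, 109 and 109 TPM in EY4028, and 125 and 113 TPM in EY4174, and at 39.95, 37.3, 37.4 and 48.8 TPM in the N libraries. Every EY library was above every N library, and the 3 lines lay close together. The mean was 112 ± 7.71 TPM (SD, n = 6) across EY, beside 40.9 ± 5.44 TPM (SD, n = 4) across N, a difference in log2 of 1.43 ± 0.089 (SE, limma adjusted p 1.11e-06). Against N the lines gave 1.37, 1.40 and 1.52 in the order EY3960, EY4028, EY4174. With the mean of each line as the unit, 3 EY values against 1, the adjusted p was 0.0538 and Slc16a3 was not called.

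The glucose transporter gene showed no difference past the threshold, and glucose entry itself was not measured. Slc2a1, which encodes the glucose transporter GLUT1, was at 47.7 and 50.7 TPM in EY3960, 43.1 and 41.8 TPM in EY4028, and 64.3 and 64.8 TPM in EY4174, and at 54.1, 49.2, 57.6 and 91.3 TPM in the N libraries. The groups overlapped, and the highest value of all was N replicate 4. The difference in log2 was -0.25 ± 0.18 (SE, limma adjusted p 0.343), and -0.061 without that replicate.

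**Figure D2:**
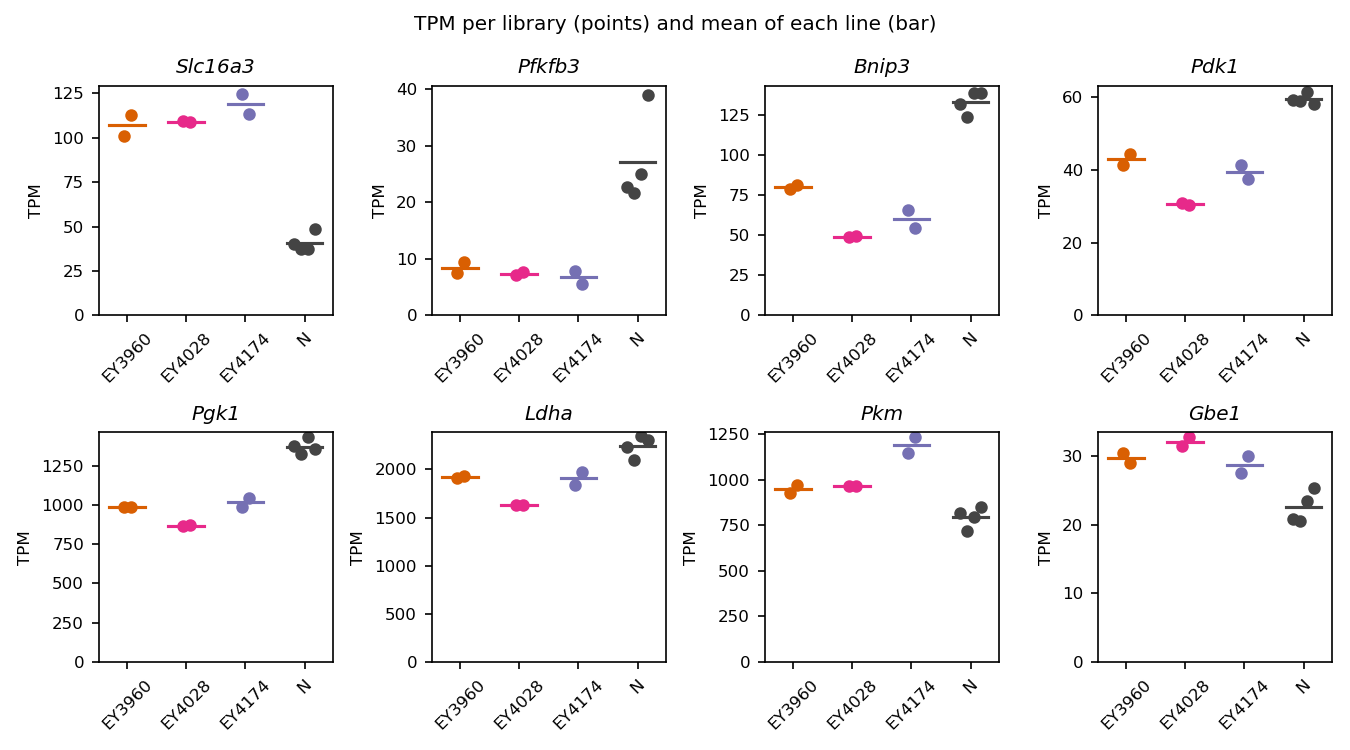
TPM per library (points) and the mean of each line (bars) for 8 genes, on axes that start at 0. Slc16a3, Pkm and Gbe1 lie higher in all 6 EY libraries than in the 4 N libraries, and Pfkfb3, Bnip3, Pdk1, Pgk1 and Ldha lie lower in all 6.

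Of the genes that control flux, Pfkfb3 fell. Its product makes fructose-2,6-bisphosphate and so speeds the phosphofructokinase step. It was at 7.48 and 9.38 TPM in EY3960, 7.15 and 7.68 TPM in EY4028, and 7.89 and 5.61 TPM in EY4174, and at 22.7, 21.7, 24.9 and 38.9 TPM in the N libraries. All 6 EY libraries were below all N libraries, of which replicate 4 was the highest. The mean was 7.53 ± 1.22 TPM (SD, n = 6) across EY, beside 27.03 ± 8.0 TPM (SD, n = 4) across N. EY minus N came to -1.69 ± 0.17 in log2 (SE, limma adjusted p 3.88e-05), and -1.51 without N replicate 4. Each line was called lower than N, at -1.54, -1.70 and -1.83. Over line means the adjusted p was 0.0779. Its relative Pfkfb4 was low in both groups, at 0.795 to 2.14 TPM in EY and 1.08 to 1.51 TPM in N, with a difference in log2 of 0.019 ± 0.17 (SE, limma adjusted p 0.949).

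Pdk1, a kinase that shuts pyruvate dehydrogenase and so keeps pyruvate out of the citric acid cycle, was at 41.4 and 44.4 TPM in EY3960, 30.9 and 30.3 TPM in EY4028, and 41.4 and 37.5 TPM in EY4174, and at 59.2, 58.8, 61.5 and 58.2 TPM in the N libraries. The groups did not overlap, and EY4028 was the lowest line. Fitted by limma, the log2 difference was -0.66 ± 0.11 (SE, adjusted p 0.00142), under the threshold for p but short of the fold of 1. The EY lines differed from one another by limma's F test (adjusted p 0.00927), by at most 0.47 on the log2 scale. Gbe1, the glycogen branching enzyme, was at 30.5 and 28.99 TPM in EY3960, 31.5 and 32.9 TPM in EY4028, and 27.5 and 30.03 TPM in EY4174, and at 20.9, 20.6, 23.5 and 25.4 TPM in the N libraries. All 6 EY libraries were above N, with a difference in log2 of 0.41 ± 0.084 (SE, limma adjusted p 0.00478).

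The first enzymes of the chain were of low abundance. Hk1, the widely expressed hexokinase that commits glucose to the cell, was at 5.11 and 5.91 TPM in EY3960, 5.05 and 4.98 TPM in EY4028, and 4.698 and 4.32 TPM in EY4174, and at 2.53, 2.83, 2.34 and 4.35 TPM in the N libraries. In 5 of 6 EY libraries the value was above every N library, and N replicate 4 was within the EY range. In log2 terms EY minus N was 0.60 ± 0.14 (SE), at a limma adjusted p of 0.00947. Hk2, the inducible hexokinase and a HIF target, was at 5.48 to 8.798 TPM in EY and 7.85 to 8.91 TPM in N, with a difference in log2 of -0.20 ± 0.12 (SE, limma adjusted p 0.253). Hk1 made up 34.8% to 48.3% of the TPM of the pair in EY and 22.1% to 35.7% in N, so that the groups overlapped at N replicate 4. This share was computed after the values were seen and was not tested.

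Phosphofructokinase is a tetramer of liver, muscle and platelet type subunits. The muscle subunit Pfkm was at 0.879 and 0.674 TPM in EY3960, 0.849 and 0.622 TPM in EY4028, and 0.812 and 0.893 TPM in EY4174, and at 1.81, 1.32, 1.396 and 2.47 TPM in the N libraries. All 6 EY libraries were below 1 TPM and all 4 N libraries above it, so that the gene entered the test through N alone. The difference in log2 was -0.60 ± 0.14 (SE, limma adjusted p 0.0092). The liver subunit Pfkl was at 30.1 to 63.5 TPM in EY and 34.8 to 47.3 TPM in N. It was highest in EY4174, at 0.52 against N (adjusted p 0.0145), and lowest in EY3960, at -0.26. The platelet subunit Pfkp was at 24.7 to 33.8 TPM in EY and 25.7 to 41.4 TPM in N, and overlapped likewise. Gpi1, the isomerase before this step, was at 205 to 271 TPM in EY and 216 to 249.8 TPM in N (log2 fold change -0.036 ± 0.084, SE).

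The abundant middle of the chain did not pass the threshold between the groups. Aldoa, the main aldolase, was at 888 to 1097 TPM in EY and 952 to 1303 TPM in N (log2 fold change -0.089 ± 0.10 (SE)). Aldoc, an aldolase best known from brain, was at 1.31 to 5.296 TPM in EY and 1.67 to 3.799 TPM in N. Its highest line was EY3960 with a mean of 4.62 TPM, and its lowest was EY4174 with 1.46 TPM. Tpi1, which interconverts the triose phosphates, was at 498 to 701 TPM in EY and 636 to 765 TPM in N, with EY4028 at -0.45 against N (limma adjusted p 0.00153) and EY3960 at 0.014.

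Gapdh, the glyceraldehyde-3-phosphate dehydrogenase often used as a reference gene, had the highest level of the 40. It was at 3653 and 3634 TPM in EY3960, 3369 and 3348 TPM in EY4028, and 4167 and 4564 TPM in EY4174, and at 4093, 3908, 4087 and 4111 TPM in the N libraries. The N libraries lay inside the EY range, with EY3960 and EY4028 below and EY4174 above all of them. EY minus N came to -0.10 ± 0.091 in log2 (SE, limma adjusted p 0.435), but the EY lines differed by up to 0.38 (limma's F test, adjusted p 0.00707). In the GENCODE M21 annotation 32 further rows of the table share at least 50% of their 31-base words with Gapdh, mostly processed pseudogenes. Together they held 3.09% to 9.57% of the summed TPM in a library. Adding them left the log2 fold change at -0.10 ± 0.086 (SE). The copies Gm10359 and Gm12671 were listed at 0 in EY4028 and at 58.2 to 211 TPM each elsewhere, whereas Gm13394 was at 199 and 209.6 TPM in EY4028 and at most 1.18 TPM elsewhere.

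Among the payoff steps Pgk1 passed the threshold for p, lower in EY, and Pgam1, Pkm and Ldha did not. The row of Eno1, described below with its copies, passed that threshold higher in EY. Pgk1, the phosphoglycerate kinase that makes the first ATP of the chain and a standard HIF target, was at 987 and 988 TPM in EY3960, 865 and 872 TPM in EY4028, and 987 and 1045 TPM in EY4174, and at 1373, 1326, 1432 and 1352 TPM in the N libraries. Each EY library was below each N library. The mean was 957 ± 72.4 TPM (SD, n = 6) across EY, beside 1371 ± 45.3 TPM (SD, n = 4) across N, a difference in log2 of -0.52 ± 0.070 (SE, limma adjusted p 3.24e-04), and each line passed that threshold for p at -0.47, -0.66 and -0.43. Pgam1, the mutase that follows, was at 381 to 448 TPM in EY and 460.3 to 539.9 TPM in N, without overlap, with a difference in log2 of -0.28 ± 0.071 (SE, limma adjusted p 0.0148). Both genes have processed pseudogenes in the same annotation, which had no row in the table, so that reads of such copies could not be told apart.

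Pkm, the pyruvate kinase whose splice forms mark proliferating and resting tissue, was at 928 and 970.2 TPM in EY3960, 965 and 966 TPM in EY4028, and 1148 and 1235 TPM in EY4174, and at 817, 720.0, 798 and 849 TPM in the N libraries. All 6 EY libraries were above all 4 N libraries and EY4174 was the highest line. Fitted by limma, the log2 difference was 0.37 ± 0.092 (SE, adjusted p 0.0126), above the threshold. The rows do not separate the splice forms.

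Ldha, the lactate dehydrogenase subunit that favours lactate formation, was at 1914 and 1937 TPM in EY3960, 1636 and 1627 TPM in EY4028, and 1837 and 1977 TPM in EY4174, and at 2234, 2097, 2348 and 2302 TPM in the N libraries. The groups did not overlap, with EY4028 the lowest line. In log2 terms EY minus N was -0.30 ± 0.076 (SE), at a limma adjusted p of 0.0132, above the threshold. Ldhb, the subunit of oxidative tissues, was at 0.435 and 1.43 TPM in EY3960, 7.097 and 6.74 TPM in EY4028, and 6.51 and 8.86 TPM in EY4174, and at 7.68, 7.95, 7.27 and 6.28 TPM in the N libraries. EY3960 was low and the other EY lines were at the N level. The difference of EY3960 from N was -2.15 ± 0.20 (SE) with a limma adjusted p of 2.15e-05, and EY lines differed by 2.21 (limma's F test, adjusted p 1.14e-04). A processed pseudogene of Ldhb, Gm5514, was at most 4.23 TPM in any library and listed at 0 in both EY3960 libraries.

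Enolase, which makes phosphoenolpyruvate, is the step at which the rows of the table depend most on near-identical copies. Besides Eno1, the table holds Eno1b, a protein-coding copy, and Gm4735, a processed pseudogene that shares 89.54% of its own 31-base words with Eno1. Over 1302 aligned bases Gm4735 differs from Eno1 at 5 positions (99.62% identical). A stretch of 61 bases is shown because a short read of it can be told apart by 1 base only, and the capital marks the base that differs between the GENCODE M21 transcripts, read on the sense strand.
Eno1: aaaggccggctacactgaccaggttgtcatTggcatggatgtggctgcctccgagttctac
Gm4735: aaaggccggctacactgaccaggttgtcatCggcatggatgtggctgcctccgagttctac

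Eno1 was at 1114 and 1140.5 TPM in EY3960, 1063 and 1047 TPM in EY4028, and 1396 and 1481 TPM in EY4174, and at 673, 637, 694 and 793 TPM in the N libraries. All 6 EY libraries were above all N libraries, with EY4174 the highest line. The mean was 1207 ± 184 TPM (SD, n = 6) across EY, beside 699 ± 66.99 TPM (SD, n = 4) across N, a difference in log2 of 0.78 ± 0.11 (SE, limma adjusted p 5.23e-04), and EY4174 alone was called against N, at 1.04.

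Eno1b was at 0.124 and 0.0448 TPM in EY3960, 114 and 118 TPM in EY4028, and 0.2898 and 0.149 TPM in EY4174, and at 143, 131, 148 and 169.8 TPM in the N libraries. It was near 0 in EY3960 and EY4174 but close to the N level in EY4028, so that the EY lines differed by 6.75 on the log2 scale (limma's F test, adjusted p 8.12e-11). The difference from N was -7.10 in EY3960, -0.34 in EY4028 and -6.93 in EY4174, with adjusted p of 9.03e-12, 0.0421 and 2.09e-11. Gm4735 had the same pattern, at 0 and 0 TPM in EY3960, 219 and 214 TPM in EY4028, and 0.514 and 0.199 TPM in EY4174, and at 261, 247, 277 and 323 TPM in the N libraries. Both copies together held 37.3% to 38.3% of the TPM of the 3 rows in N, 23.9% to 24.1% in EY4028, and at most 0.0576% in the other EY lines. Whether the copies are transcribed or share reads of Eno1 was not tested.

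**Figure D3:**
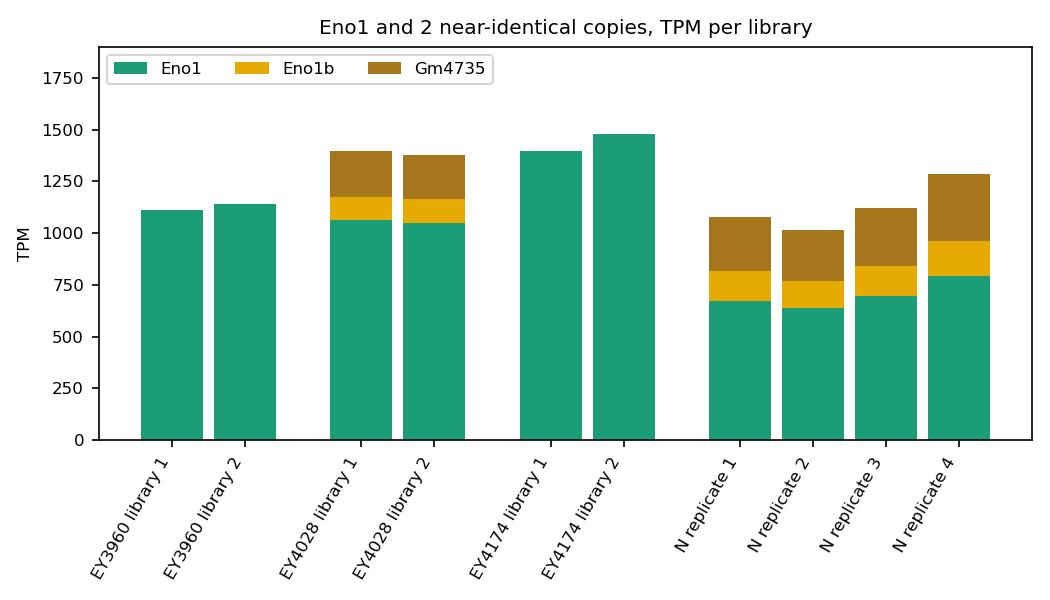
Stacked TPM of Eno1, Eno1b and Gm4735 in each library, from 0. The 4 N libraries and both EY4028 libraries hold all 3 rows, whereas EY3960 and EY4174 hold Eno1 almost alone, and the stacks of EY3960 (1114 and 1141 TPM) lie within the N range of 1015 to 1286 TPM.

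The sum of Eno1 and Eno1b was 1114 and 1141 TPM in EY3960, 1176 and 1165 TPM in EY4028, and 1396 and 1481 TPM in EY4174, and 816, 768, 842 and 963 TPM in the N libraries. All 6 EY libraries stayed above N, with a difference in log2 of 0.55 ± 0.098 (SE, limma adjusted p 0.00202). With Gm4735 added, an alternative chosen after seeing the data, the sum was 1114 and 1141 TPM in EY3960, 1396 and 1379 TPM in EY4028, and 1396 and 1481 TPM in EY4174, and 1077, 1015, 1119.8 and 1286 TPM in the N libraries. Of the EY libraries 4 of 6 were then above N, and the log2 fold change was 0.23 ± 0.099 (SE) with an adjusted p of 0.119. By line it was 0.0090 in EY3960, 0.31 in EY4028 and 0.36 in EY4174. The size of the enolase difference therefore depends on which rows are counted.

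As a sum, the 17 enzymes of the chain made up 1.01% to 1.29% of all TPM in EY and 1.12% to 1.25% in N. With the copies added the shares were 1.06% to 1.31% and 1.15% to 1.32%. The groups overlapped on both counts, and EY4028 had the lowest share. In bulk samples fewer cells that express a gene and less RNA of it per cell cannot be told apart.

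None of the 4 oxygen sensing genes among the 40 passed the threshold by limma, with 1 at an unadjusted p under 0.05. Hif1a, the regulated subunit of HIF-1, was at 74.7 and 83.7 TPM in EY3960, 69.4 and 70.9 TPM in EY4028, and 62.5 and 51.9 TPM in EY4174, and at 65.95, 63.2, 70.4 and 64.9 TPM in the N libraries. The groups overlapped, with both EY3960 libraries above and both EY4174 libraries below all N libraries. The difference in log2 was 0.044 ± 0.11 (SE, limma adjusted p 0.813). Egln1, the main prolyl hydroxylase that marks HIF alpha, was at 12.3 to 12.9 TPM in EY and 13.5 to 15.5 TPM in N without overlap (log2 fold change -0.18 ± 0.075 (SE), adjusted p 0.105). Egln3, a prolyl hydroxylase that HIF itself induces, had line means of 77.2 TPM in EY3960, 42.8 TPM in EY4028, 68.1 TPM in EY4174 and 57.7 TPM in N, and overlapped. Kdm3a, an oxygen-dependent demethylase of histone H3, was at 22.01 to 30.7 TPM in EY and 23.1 to 36.3 TPM in N (log2 fold change -0.25 ± 0.13 (SE), adjusted p 0.172). Only N replicate 4 was within the EY range, and without it the log2 fold change was -0.38 (limma adjusted p 0.0203).

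Bnip3, which HIF induces and which tags mitochondria for autophagy, had the largest fall of the 40 genes outside glycolysis and its regulators. It was at 79.1 and 81.7 TPM in EY3960, 48.8 and 49.7 TPM in EY4028, and 65.6 and 54.4 TPM in EY4174, and at 132, 124, 139 and 139 TPM in the N libraries. The groups did not overlap, and the EY lines followed the order EY3960, EY4174, EY4028 from high to low. The mean was 63.2 ± 14.6 TPM (SD, n = 6) across EY, beside 134 ± 6.92 TPM (SD, n = 4) across N, a difference in log2 of -1.10 ± 0.15 (SE, limma adjusted p 3.47e-04). Against N the lines gave -0.72, -1.42 and -1.14 in the order EY3960, EY4028, EY4174, and EY4028 and EY4174 were called. The lines differed from one another by up to 0.70 (limma's F test, adjusted p 0.00235). Without EY4028 the log2 fold change was -0.93 and the call was lost, and over line means the adjusted p was 0.286.

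Its relative Bnip3l, which acts in the clearance of mitochondria from maturing cells, was at 103 to 176 TPM in EY and 145 to 180.0 TPM in N and overlapped (log2 fold change -0.31 ± 0.14 (SE), adjusted p 0.129). EY3960 was at 0.051 against N, whereas EY4028 was at -0.47 (limma adjusted p 0.00659) and EY4174 at -0.52 (adjusted p 0.00392). Pseudogenes of both genes are annotated but were not analysed here.

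Enzymes of collagen and disulfide formation had fold changes below 0. P4ha1, the catalytic subunit of collagen prolyl hydroxylase, was at 45.2 and 48.2 TPM in EY3960, 36.8 and 38.5 TPM in EY4028, and 41.8 and 43.2 TPM in EY4174, and at 54.4, 52.3, 58.2 and 55.8 TPM in the N libraries. The groups did not overlap, with a difference in log2 of -0.38 ± 0.084 (SE, limma adjusted p 0.00716). P4ha2, its alternative subunit, was at 8.07 to 10.5 TPM in EY and 10.2 to 18.8 TPM in N (log2 fold change -0.48 ± 0.15 (SE), adjusted p 0.0327). Plod2, the lysyl hydroxylase of collagen crosslinking, was at 45.4 to 62.02 TPM in EY and at 86.2, 89.3, 95.2 and 41.9 TPM in the N libraries. N replicate 4 lay below every EY library while the other N libraries lay above them all. EY minus N came to -0.45 ± 0.20 in log2 (SE, limma adjusted p 0.129), and without that replicate -0.72 with an adjusted p of 5.67e-04. Ero1l, the oxidase that renews disulfide bonds in the endoplasmic reticulum, had line means of 73.01 TPM in EY3960, 41.97 TPM in EY4028, 42.7 TPM in EY4174 and 60.9 TPM in N.

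Of the secreted factors, Vegfa, the main growth factor of blood vessels and a classic HIF target, was at 18.1 and 19.2 TPM in EY3960, 19.9 and 14.96 TPM in EY4028, and 16.2 and 15.2 TPM in EY4174, and at 22.5, 19.2, 21.8 and 14.2 TPM in the N libraries. The groups overlapped, with a difference in log2 of -0.15 ± 0.13 (SE, limma adjusted p 0.45). Adm, the precursor of the vasodilator adrenomedullin, was at 38.4 to 74.01 TPM in EY and 62.03 to 96.1 TPM in N. EY4028 stood apart at -0.90 against N (limma adjusted p 9.58e-04), beside -0.15 in EY3960 and -0.046 in EY4174. The F test of limma among EY lines gave an adjusted p of 0.00789.

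The remaining HIF targets overlapped between the groups. Ankrd37, an ankyrin repeat protein, was at 8.26 to 13.2 TPM in EY and at 14.1, 15.5, 15.95 and 6.06 TPM in the N libraries. N replicate 4 lay below every EY library and the other N libraries above them all. The log2 fold change was -0.18 (limma adjusted p 0.628), and -0.48 without that replicate (adjusted p 0.0435). Ndrg1, a stress-induced gene of differentiating epithelia, was at 28.98 to 59.4 TPM in EY and 27.7 to 65.1 TPM in N, where replicate 4 alone was above 30.7 TPM. Ddit4, an inhibitor of mTORC1, was at 17.2 to 22.8 TPM in EY and 11.9 to 21.5 TPM in N. Mxi1, which opposes MYC through MAX, had means of 4.68 TPM in EY3960, 2.53 TPM in EY4028, 2.33 TPM in EY4174 and 4.69 TPM in N. Car9, the tumour-associated carbonic anhydrase much used as a hypoxia marker, was barely detected, at 0.412 to 1.68 TPM in EY and 0.323 to 2.11 TPM in N, with at least 1 TPM in 3 EY libraries and 1 N library.

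The EY lines were then set against N one at a time, which asks how far a difference holds across cultures. The 3 comparisons share the N libraries. In EY3960 4 of the 40 genes (10%) were called, beside 7.04% of all genes, namely Slc16a3, Eno1b, Ldhb and Pfkfb3. In EY4028 3 genes (7.5%) were called, beside 5.74% of all genes, namely Slc16a3, Pfkfb3 and Bnip3. In EY4174 5 genes (12.5%) were called, beside 4.95% of all genes, namely Slc16a3, Eno1, Eno1b, Pfkfb3 and Bnip3. Slc16a3 and Pfkfb3 were called in each line. Eno1b, part of the counts in EY3960 and EY4174, passed the filter only with the N libraries.

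Genes below N numbered 24 of 40 in EY3960, 29 in EY4028 and 24 in EY4174, with medians of -0.069, -0.28 and -0.12. The medians over all genes tested were 0.01, 0.09 and -0.01. EY4028 had the lowest mean of the 4 lines for 18 of the 40 genes, beside 11.2% of all genes tested, and the highest for 2, beside 31.4%. N had the highest mean for 16 genes, beside 26.5% of all genes, and EY3960 for 12, beside 23.6%. The order of lines was counted after earlier values were seen and was not tested.

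**Figure D4:**
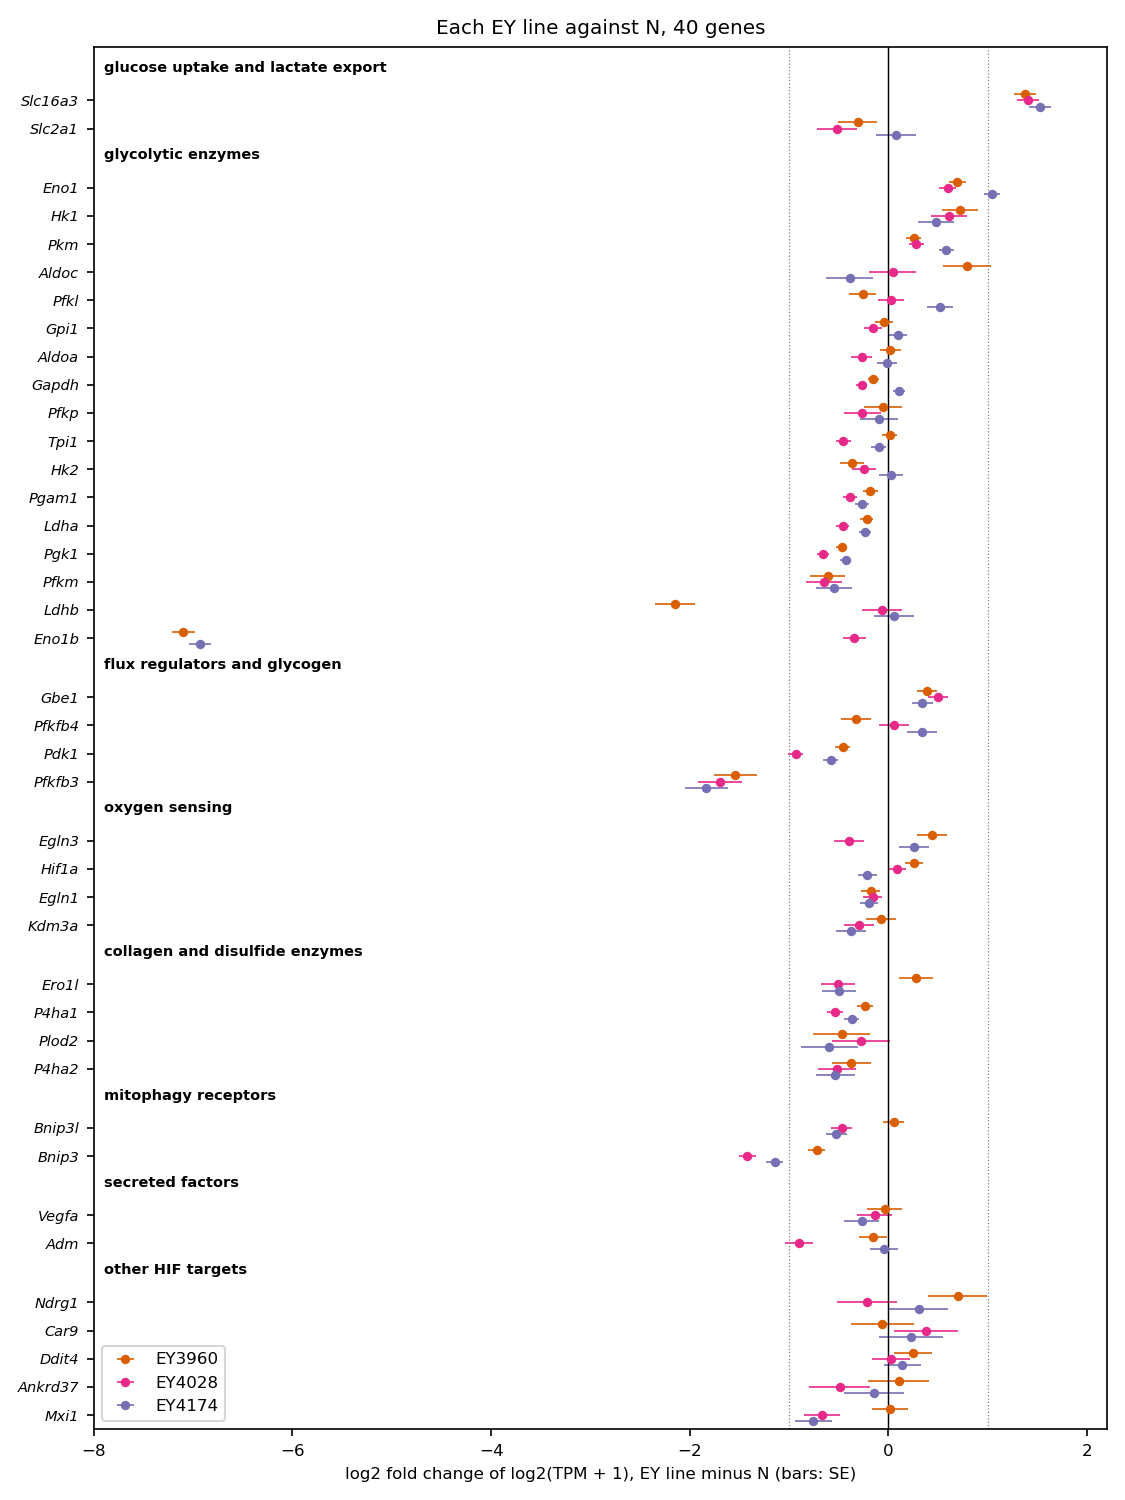
Log2 fold change on log2(TPM + 1) of each EY line against N for the 40 genes, grouped by role, with bars of 1 SE and dotted lines at a fold of 1 in either direction. Slc16a3 lies to the right and Pfkfb3 to the left of the dotted lines in all 3 lines, Bnip3 passes in EY4028 and EY4174, and Eno1b lies near 0 in EY4028 alone.

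Among the EY lines themselves 2 of the 40 genes (5%) were called by limma's F test and a difference over 1, Eno1b and Ldhb, beside 5.12% of all genes. Tpi1, Gapdh, Pdk1, Bnip3 and Adm passed the threshold for p with differences under 1. EY4028 was the lowest line for Tpi1, Gapdh, Pdk1, Bnip3 and Adm, with means of 506, 3359, 30.6, 49.2 and 39.1 TPM.

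Other genes of these pathways were read from lists of neighbouring functions, of which 82 had a row and 70 were tested. By the adjusted p alone 6 of the 70 were higher in EY and 3 lower, beside 6.84% and 5% of all genes tested. By the adjusted p and the fold 2 were called higher and 1 lower, beside 1.85% and 1.7% of all genes. Edn1, the vasoconstrictor endothelin-1, was at 11.2 to 23.5 TPM in EY and 1.98 to 2.98 TPM in N, with a difference in log2 of 2.51 ± 0.23 (SE, limma adjusted p 2.31e-05). Vldlr, a lipoprotein receptor, was at 2.03 to 4.39 TPM in EY and 10.8 to 15.97 TPM in N, with -1.70 ± 0.19 (SE) and an adjusted p of 9.65e-05. Stc2, a secreted glycoprotein, was at 0.4598 to 2.02 TPM in EY and 0.0412 to 0.156 TPM in N (1.03 ± 0.20 (SE), adjusted p 0.00343), and passed the filter through EY alone. It could therefore enter only by being higher in EY, and it is part of both counts of higher genes.

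The pentose phosphate pathway draws glucose-6-phosphate away from glycolysis to make NADPH and ribose. Of its 7 genes tested 2 passed the adjusted p, both higher in EY, beside 6.84% of all genes. Pgd, its second dehydrogenase, was at 98.2 to 134 TPM in EY and 59.5 to 68.6 TPM in N (log2 fold change 0.84 ± 0.099 (SE), adjusted p 1.32e-04), and Taldo1, transaldolase, was at 226 to 274 TPM and 185 to 220.0 TPM (0.32 ± 0.075 (SE), adjusted p 0.00917). G6pdx, its first enzyme, had a difference in log2 of -0.17 ± 0.074 (SE, limma adjusted p 0.121). None of 10 other glycolysis genes and none of 11 genes of pyruvate oxidation passed by limma, with 1 gene of each list at an unadjusted p under 0.05. The smallest adjusted p was 0.0677 for the muscle enolase Eno3 and 0.0653 for the pyruvate carrier subunit Mpc2.

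In the oxygen sensing machinery 1 of 12 genes passed the adjusted p, lower in EY, beside 5% of all genes. Vhl, which encodes the ubiquitin ligase subunit that recognises HIF alpha, was at 9.77 to 11.3 TPM in EY and 12.9 to 14.3 TPM in N (log2 fold change -0.37 ± 0.083 (SE), adjusted p 0.00731). Cited2, which competes with HIF for its coactivator, had a difference in log2 of 0.71 ± 0.17 (SE, limma adjusted p 0.01004). Of 30 further HIF target genes 4 were higher and 2 lower by the adjusted p, beside 6.84% and 5% of all genes. Those higher were Edn1, Stc2, Wsb1 and Hmox1, and those lower were Vldlr and Fam162a. Of these, Stc2 passed the filter through EY alone and so could only be found higher. Wsb1, a ubiquitin ligase subunit, differed by 0.55 ± 0.079 (SE, limma adjusted p 5.44e-04) in log2. Hmox1 and Fam162a were named after their values were seen. Hmox1, the inducible heme oxygenase, differed by 0.82 (limma adjusted p 0.00614). Fam162a, a mitochondrial protein gene, was at 420.04 to 656 TPM in EY and 954 to 1069 TPM in N without overlap, and EY minus N came to -0.86 ± 0.14 in log2 (SE, limma adjusted p 0.00100).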

How the data were processed

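Bulk RNA-seq of 6 EY and 4 N libraries was read from 1 table. The values were TPM as deposited, computed by the authors. Poly(A) libraries were sequenced on an Illumina NovaSeq6000. The submitters' processing notes name STAR 2.7.9, SAMtools 1.7, HTSeq 0.13.5, DESeq2 1.34.0 and the build GRCm39. The paper's methods also describe a Kallisto TPM step against a human transcriptome, and which step made this table is not given in the sources used here. Read depth is therefore unknown, and no counting interval could be given.

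Genes that reached 1 TPM in at least 4 libraries were tested on log2(TPM + 1) with limma 3.58.1 (R 4.3.3, trend and robust options), which understates changes of low genes. All EY libraries were set against all N libraries, and a fit of 4 line means gave each EY line against N and an F test among EY lines. P-values were adjusted over all genes tested, and the fits were checked on simulated data. The named genes and lists were chosen with earlier results of these data known. Values in every library are given for called genes, the 8 others with the smallest adjusted p, and fixed reference genes (Hif1a, Vegfa, Slc2a1, Gapdh, Pgk1, Eno1, Eno1b, Ldha). Of other pathway genes, those called and up to 3 per list with the smallest adjusted p are named. Near-identical copies were sought as genes sharing at least 50% of 31-base words in GENCODE M21. Motifs were read from RefSeq windows on GRCm38.p6.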

Additional observations from a re-analysis of the deposited data

Results flagged for a closer look

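In 6 of 80 sets of EY or N values, 1 library lay far from the rest of its group. A rate of 5% in independent values would give 4. EY libraries came in pairs and the genes share the same libraries, so that this number cannot serve as a chance level. N replicate 4 was the library in 4 of them. It was low for Plod2, with 41.9 TPM beside 86.2 to 95.2 TPM in the other N libraries. It was high for Ero1l, with 80.2 TPM beside 52.2 to 56.1 TPM, for Ndrg1, with 65.1 TPM beside 27.7 to 30.7 TPM, and for Car9, with 2.11 TPM beside 0.323 to 0.604 TPM. N replicate 2 was low for Gapdh, with 3908 TPM beside 4087 to 4111 TPM. The second library of EY4174 was high for Gpi1, with 271 TPM beside 205 to 227 TPM in the other EY libraries.

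The contrast with N differed between EY lines for Eno1b, by 6.75 on the log2 scale, and for Ldhb, by 2.21, both by limma's F test. What sets N replicate 4 or these lines apart was not tested.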

How the results depend on the processing

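The calls of Slc16a3 and Pfkfb3 remained in 23 and 23 of 24 alternatives and that of Bnip3 in 21. With the mean of each line as the unit, 3 EY values stood against 1 N value. The calls among the 40 genes and the other pathway genes were lost there, as were nearly all calls in the whole table, since fewer values entered. The log2 fold changes were 1.43 for Slc16a3, -1.69 for Pfkfb3 and -1.10 for Bnip3. With at least 1 TPM required in all libraries, 2 genes were called in EY3960 and 0 among EY lines (18 at an unadjusted p under 0.05 by limma's F test), since Eno1b and Ldhb were no longer tested. With median-of-ratios scaling 5 genes were called in EY4028, and the cause was not tested. The number in the title used as a replicate block gave 2 called genes, Slc16a3 and Pfkfb3, with Bnip3 at -1.04 (limma adjusted p 0.0223). Over all genes tested this block called 221, beside 413 in the main fit. Numbers 3 and 4 occur in N only, so that the contrast of this fit rests on N replicates 1 and 2. Libraries with the same number in different lines deviated together with r between -0.15 and 0.10 over 12 pairs. With 2 libraries per EY line their deviations from the line mean mirror each other. These correlations therefore cannot decide whether the numbers pair libraries. By the adjusted p alone the block gave 1 higher and 1 lower gene in place of 4 and 6, line as a random block 1 and 3, and leaving out 1 library 2 to 4 and 4 to 6. Without EY4028, Bnip3 was at -0.93 and not called, and Eno1b was called at -7.01. Leaving out 1 library gave 3 called genes each time, beside 295 to 444 over all genes tested. It gave 2 to 3 other pathway genes, and of the 40 genes 3 to 4 in EY3960, 4 to 5 in EY4174 and 2 to 3 among EY lines. For the counts by line and by the adjusted p alone under these settings, the counts over all genes are not given here.

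Of 945 fold changes of single genes under an alternative, 22 changed sign, all of genes that were not called. Leaving out 1 library gave -0.012 to 0.20 for Pfkl, -0.069 to 0.092 for Pfkfb4, -0.016 to 0.34 for Aldoc, -0.015 to 0.12 for Hif1a, -0.22 to 0.0032 for Pfkp, -0.15 to 0.0014 for Aldoa and -0.034 to 0.23 for Ddit4. The replicate block gave 0.062 for Pfkp, 0.036 for Aldoa and -0.033 for Ddit4, and quantile normalization -0.022 for Hif1a. Without EY3960 the values were -0.17 for Aldoc, -0.063 for Hif1a and -0.070 for Egln3. Without EY4028 they were 0.025 for Gpi1 and 0.0024 for Aldoa, and without EY4174 -0.12 for Pfkl and -0.14 for Pfkfb4. Alternatives that raised the filter or dropped a library left some genes of under 1 TPM without a value.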
